A study of Mus musculus with 12 samples.

Results

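Bone marrow mesenchymal stem cells (MSCs) attach to immune cells and act on them through molecules on their surface, and 7 genes for such molecules, taken by name for that role, were followed here: Icam1, Vcam1, Alcam, Mcam, Thy1, Nt5e and Cd274. All 7 were among the 55401 genes of the deposited table. The cells were commercially obtained MSCs from bone marrow of C57BL/6 mice, in 4 groups with 3 mRNA libraries each: MSCs without treatment (control), MSCs treated with TGF-β1 at 5 ng/mL, and MSCs given the same TGF-β1 in supernatant from monocytic (TGF-β1/M-MDSC) or granulocytic (TGF-β1/G-MDSC) myeloid-derived suppressor cells. TGF-β1 drives MSCs toward myofibroblasts, the matrix-producing cells of fibrosis, and the study asked how the supernatants alter that course. The MDSCs were sorted from bone marrow cells induced with GM-CSF and IL-6 and kept in an RPMI-based medium, whereas the MSCs grew in DMEM. None of the 4 groups received that medium without MDSC products, or supernatant without TGF-β1, so effects of the medium and of MDSC products cannot be told apart. What separates the 3 libraries of a group is not stated, so the p-values measure the spread between these libraries, which may be technical.

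Icam1 and Vcam1 are members of the immunoglobulin superfamily that leukocytes grip through integrins: LFA-1 and Mac-1 (which share the β2 chain Itgb2) bind ICAM-1, and VLA-4 binds VCAM-1. In MSCs both are known to rise with inflammatory cytokines and to hold T cells close to the MSC. Alcam (CD166) binds CD6 on T cells and other ALCAM molecules. Mcam (CD146) marks perivascular stromal cells. Thy1 (CD90) and Nt5e (CD73) belong to the usual panel of MSC surface markers, and Nt5e also converts extracellular AMP to adenosine, which restrains T cells. Cd274 encodes PD-L1, the ligand of the T cell checkpoint receptor PD-1, and is a known target of interferon signaling.

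The genes lay on 4 chromosomes of GRCm38, the build of the deposited table. Icam1 (chr9:21015985-21028817, plus strand), Thy1 (chr9:44043384-44048579, plus), Mcam (chr9:44134469-44142727, plus) and Nt5e (chr9:88327197-88372092, plus) were on chromosome 9. Vcam1 was at chr3:116109949-116129688 on the minus strand, Alcam at chr16:52248996-52454074 on the minus strand and Cd274 at chr19:29367455-29388095 on the plus strand. Annotated antisense genes overlapped Icam1, Vcam1, Mcam and Cd274. Those of Icam1, Vcam1 and Mcam held 62, 23 and 298 counts summed over all 12 libraries. The libraries were stranded, but whether the counting used the strand is not given in the sources used here, so reads of these pairs may not be fully separated.

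The study lists PCR primers for Icam1 and Vcam1, which are shown because they mark which part of each transcript its PCR reads. It reported PCR of these genes in mouse kidney tissue, not in MSCs. The Icam1 pair lies in exon 2 of an annotated Icam1 transcript (forward chr9:21018925-21018946, reverse chr9:21019117-21019137) and spans 213 bp. The Vcam1 forward primer lies in exon 1 (chr3:116129324-116129343) and the reverse primer in exon 2 (chr3:116128763-116128785) of an annotated Vcam1 transcript, with a product of 86 bp. Each primer matched transcripts of a single gene. The Vcam1 forward primer matched 2 of the 4 annotated Vcam1 transcripts, and the reverse primer 3 of 4.
Icam1 forward: gtgatgctcaggtatccatcca
Icam1 reverse: cacagttctcaaagcacagcg
Vcam1 forward: ttgggagcctcaacggtact
Vcam1 reverse: gcaatcgttttgtattcagggga

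RefSeq promoter windows (GRCm38.p6, 250 bases before to 50 after the gene start) were matched for 5 of the 7 genes: Icam1, Alcam, Mcam, Nt5e and Cd274. They are shown for 4 genes: Icam1, Mcam, Nt5e and Cd274. For Icam1 no comparison passed the test in the fit of all 4 groups. Mcam rose with TGF-β1 and was lower with the supernatants, and Nt5e rose with TGF-β1. Cd274 fell with TGF-β1 and was higher with the supernatants. Capitals mark every match, on either strand, of the motifs searched: the κB consensus, a p65-type κB site GGAANTTCC, the ISRE core (GAAA, any 2 bases, GAAA), GAS TTCNNNGAA, AP-1 TGANTCA, the SMAD element CAGAC, the CArG box, the TEAD motif GGAATG and the GC box GGGCGG. The p65-type site was added after the Icam1 sequence had been seen.
Icam1, chr9:21015690-21015989, plus strand: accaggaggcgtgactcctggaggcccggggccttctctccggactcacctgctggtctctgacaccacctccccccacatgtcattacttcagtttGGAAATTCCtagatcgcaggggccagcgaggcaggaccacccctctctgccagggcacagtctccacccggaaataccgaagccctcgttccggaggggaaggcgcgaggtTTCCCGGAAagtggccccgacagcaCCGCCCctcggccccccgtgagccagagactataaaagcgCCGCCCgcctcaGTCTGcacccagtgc
Mcam, chr9:44134408-44134707, plus strand: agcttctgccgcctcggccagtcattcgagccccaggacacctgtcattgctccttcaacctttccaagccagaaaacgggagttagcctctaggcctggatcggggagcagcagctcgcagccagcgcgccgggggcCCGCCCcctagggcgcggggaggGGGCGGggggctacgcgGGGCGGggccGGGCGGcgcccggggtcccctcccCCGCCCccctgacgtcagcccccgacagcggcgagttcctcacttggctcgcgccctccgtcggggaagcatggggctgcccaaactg
Nt5e, chr9:88327359-88327658, plus strand: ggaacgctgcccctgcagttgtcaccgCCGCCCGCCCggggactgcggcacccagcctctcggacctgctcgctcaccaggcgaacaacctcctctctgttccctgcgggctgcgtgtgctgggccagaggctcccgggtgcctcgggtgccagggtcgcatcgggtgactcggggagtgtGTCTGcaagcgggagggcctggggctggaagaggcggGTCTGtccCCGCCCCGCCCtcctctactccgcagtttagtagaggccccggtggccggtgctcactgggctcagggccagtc
Cd274, chr19:29367188-29367487, plus strand: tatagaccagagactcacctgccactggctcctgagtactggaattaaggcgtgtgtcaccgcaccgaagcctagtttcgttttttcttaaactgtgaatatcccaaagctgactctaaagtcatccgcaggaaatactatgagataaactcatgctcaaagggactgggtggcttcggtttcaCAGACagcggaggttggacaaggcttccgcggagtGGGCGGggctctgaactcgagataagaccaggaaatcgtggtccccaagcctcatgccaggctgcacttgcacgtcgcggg

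The Icam1 window held the p65-type site from 153 to 145 bases before the start, a site found in 0.928% of all 32851 promoter windows of this length, and a GAS match from 42 to 34 bases before it, found in 8.3%. Of the 5 windows, 3 (Icam1, Nt5e and Cd274) held the SMAD element, as did 49.6% of all windows. The GC box was in all 5, against 35.7% of all windows, with 5 matches in Mcam and overlapping matches in Nt5e. The κB consensus (8.46% of all windows), the ISRE core (3.44%), AP-1 (7.81%), the CArG box (1.63%) and TEAD (14.7%) were in none of the 5. These are matches of letters within 300 bases and no more.

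The libraries held from 73977669 to 84565450 counts. The MSC list (Eng, Itgb1, Cd44, Ly6a, Pdgfra, Pdgfrb, Col1a1, Col1a2) had 7 of 8 genes at a mean of at least 1 FPKM (fragments per kilobase of transcript, scaled for library size) in every group, with Eng below 1. Kit (CD117) and Pecam1 (CD31) are markers for which the study found its MSCs negative. Kit had 0 counts in the control and TGF-β1 libraries. Pecam1 had 40 to 53 counts in control, 56 to 66 with TGF-β1, 58 to 73 with M-MDSC and 75 to 120 with G-MDSC supernatant. The pan-leukocyte gene Ptprc had 0 counts in the control libraries. The libraries with supernatant stood apart in RNA of other cell types. Kap, a gene of the kidney tubule, had 0 counts in all 6 libraries without supernatant and from 537 to 4246 in the 6 with it. The summed FPKM of 4 hepatocyte genes (Alb, Apoa1, Ttr, Serpina1a), at 0 counts without supernatant, was 0.0765 and 0.176 in TGF-β1/M-MDSC replicates 1 and 2, 47.0 in replicate 3, and from 49.9 to 55.2 in the TGF-β1/G-MDSC libraries. In this respect TGF-β1/M-MDSC replicate 3 was close to the TGF-β1/G-MDSC libraries and far from the other two of its group. Where this RNA came from, carry-over between samples included, was not tested. Comparisons of M-MDSC supernatant with TGF-β1 and with G-MDSC supernatant are also given without it. In bulk RNA, fewer cells of a type and less RNA per cell cannot be told apart.

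**Figure D1:**
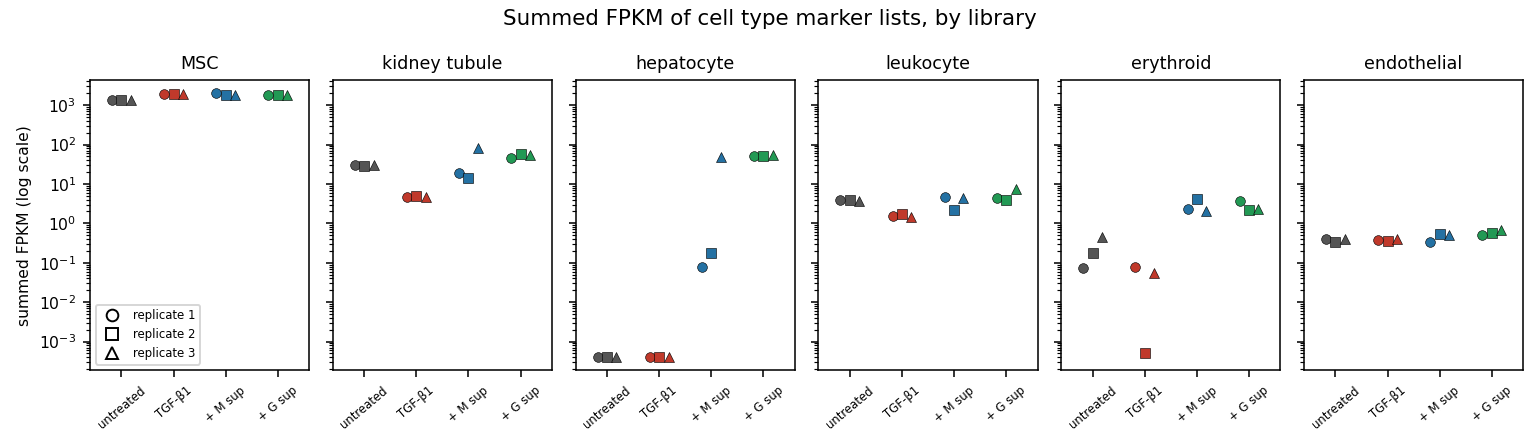
Summed FPKM (log scale) of 6 marker lists in each library, with a panel for each list, colors for the 4 groups and symbols for replicates 1 to 3; M sup and G sup are M-MDSC and G-MDSC supernatant, and a gene with 0 counts is written as 0.0001 FPKM in the deposited table. The hepatocyte sum is 47.0 in TGF-β1/M-MDSC replicate 3 and at least 49.9 in the TGF-β1/G-MDSC libraries, but at most 0.176 in the other libraries with M-MDSC supernatant.

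In FPKM, which corrects for gene length and so allows levels of different genes to be compared, Mcam was the highest of the 7 in every group, with means from 21.4 to 62.7. Icam1 was the lowest in every group, with means from 0.0976 to 0.254. In control MSCs the order was Mcam, Thy1 (4.49), Vcam1 (3.97), Cd274 (0.511), Alcam (0.511), Nt5e (0.407) and Icam1 (0.254). With TGF-β1/G-MDSC supernatant Nt5e (1.65) stood in the second place and Alcam (1.55) in the third, ahead of Thy1 (1.55) and Vcam1 (1.50). The filter for testing, at least 1 FPKM in at least 3 of the 12 libraries, was passed by 5 of the 7 genes. Icam1 and Cd274 stayed below it, and their tests come from a fit of 18761 genes under a lower filter (edgeR's filterByExpr).

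**Figure D2:**
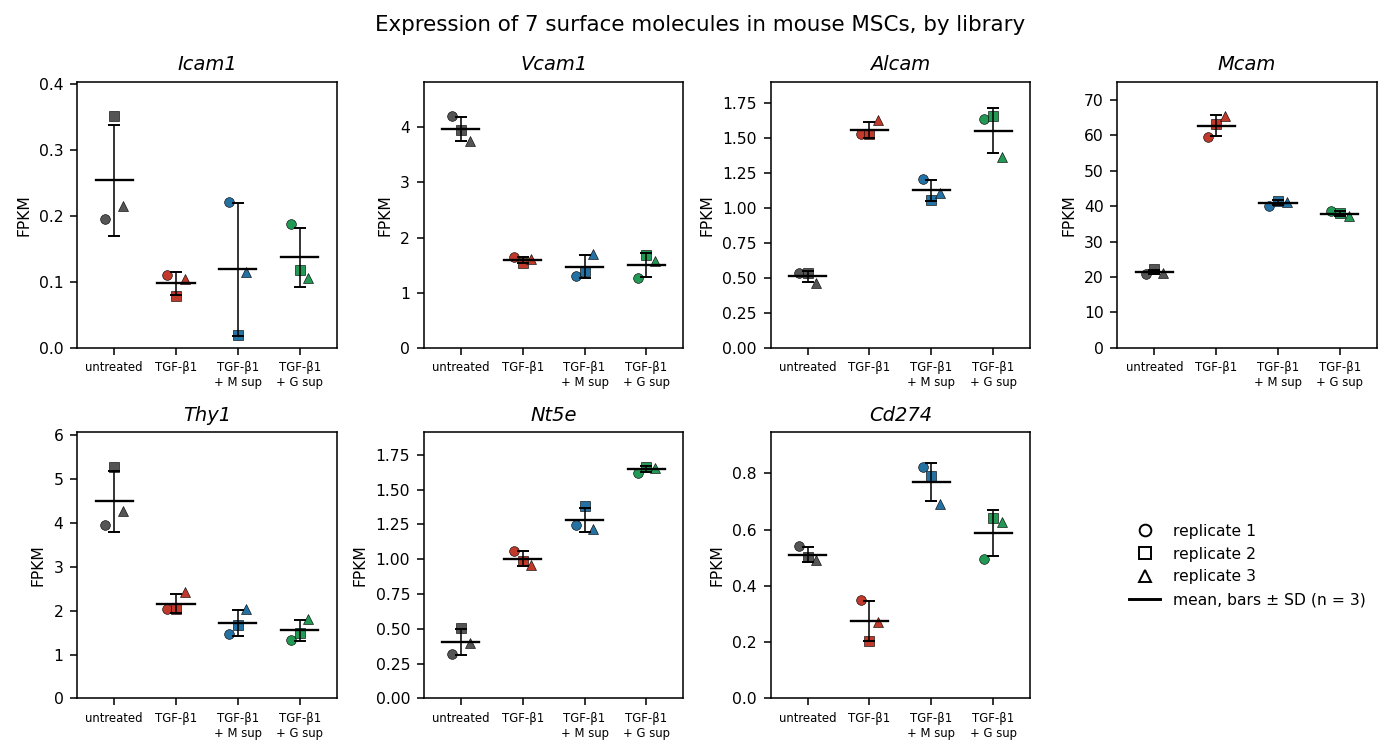
FPKM of each of the 7 genes in each of the 12 libraries (linear axes from 0); symbols are replicates 1 to 3, long lines are group means and bars are ± SD (n = 3). The 3 TGF-β1 libraries lie above the control libraries for Alcam, Mcam and Nt5e and below them for Icam1, Vcam1, Thy1 and Cd274.

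The first comparison, TGF-β1 against control, asks how these molecules changed as the MSCs were driven toward myofibroblasts. Alcam, Mcam and Nt5e rose, and Vcam1, Thy1 and Cd274 fell. Of the 5 genes tested under the FPKM filter, 5 passed an adjusted p-value of 0.05 (edgeR quasi-likelihood test, Benjamini-Hochberg), 3 higher and 2 lower. Over all 12016 genes tested, 34.0% passed, 16.1% higher and 17.9% lower. The median absolute log2 fold change was 1.35 in the 5 genes, the value of Nt5e, and 0.20 over all genes tested. Alcam and Nt5e were at most 0.537 and 0.505 FPKM in the control libraries. They passed the FPKM filter only through libraries with TGF-β1, so the filter favored their rise over control. Under the lower filter 6 of 7 passed, against 24.6% of 18761 genes. The rule used in the study, which asks for an unadjusted p-value under 0.05 and a fold change that leaves the range from 0.5 to 2, took 4 of the 5, against 6.74% of genes (under the lower filter 4 of 7, against 9.57%), but 1 of the 5, against 3.86%, with limma on log2(FPKM + 1), a scale that understates changes of low genes. On that scale Alcam rose by 0.76 and Nt5e by 0.51, and 5 of the 5 still had an adjusted p under 0.05, against 35.0% of genes. The libraries of the 2 groups did not overlap in FPKM for any of the 7 genes, which was the case for 39.6% of the 18761 genes.

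Among the ligands for leukocyte integrins, Vcam1 was at 4.20, 3.95 and 3.76 FPKM in control replicates 1 to 3 and at 1.64, 1.53 and 1.61 with TGF-β1. Each TGF-β1 library was below each control library. The log2 fold change was -1.26 ± 0.12 (SE, n = 3 per group; edgeR adjusted p = 1.42e-05), so the level with TGF-β1 was 0.419 of that in control MSCs.

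Icam1 was at 0.195, 0.351 and 0.215 FPKM in the control libraries, from 74, 144 and 85 counts, and at 0.110, 0.0778 and 0.105 with TGF-β1, from 44, 32 and 41 counts. The 2 groups did not overlap, but all values were low. The log2 fold change of -1.31 had a 95% interval from -2.67 to 0.056 and an edgeR adjusted p of 0.164, so Icam1 was not called in the fit of all 4 groups. With only the 2 groups in the fit, the log2 fold change was -1.30 and the edgeR adjusted p was 0.0262.

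The homophilic and perivascular molecules rose. Alcam was at 0.537, 0.532 and 0.463 FPKM in control MSCs and at 1.53, 1.53 and 1.63 with TGF-β1, a log2 fold change of 1.66 ± 0.099 (SE; edgeR adjusted p = 3.75e-07). Mcam went from 21.0, 22.1 and 21.0 FPKM to 59.5, 63.2 and 65.4, with a log2 fold change of 1.61 ± 0.043 (SE; edgeR adjusted p = 1.40e-09). For both genes the lowest library with TGF-β1 was far above the highest control library.

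The MSC markers Thy1 and Nt5e moved in opposite directions. Thy1 was at 3.94, 5.27 and 4.26 FPKM in the control libraries and at 2.04, 2.03 and 2.42 with TGF-β1, and its log2 fold change was -0.99 ± 0.16 (SE; edgeR adjusted p = 0.000679). Nt5e was at 0.321, 0.505 and 0.397 FPKM in control MSCs and at 1.06, 0.990 and 0.958 with TGF-β1, a log2 fold change of 1.35 ± 0.14 (SE; edgeR adjusted p = 2.41e-05). Control replicate 2 was the highest control library for both genes, and for Icam1.

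The checkpoint ligand Cd274 was at 0.540, 0.501 and 0.491 FPKM in the control libraries (168, 170 and 160 counts) and at 0.349, 0.204 and 0.272 with TGF-β1 (114, 68 and 89 counts). Its log2 fold change was -0.83 ± 0.20 (SE; edgeR adjusted p = 0.00933). All TGF-β1 libraries lay below the control libraries, and the difference passed with each library left out in turn (edgeR adjusted p from 0.00391 to 0.0323).

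**Figure D3:**
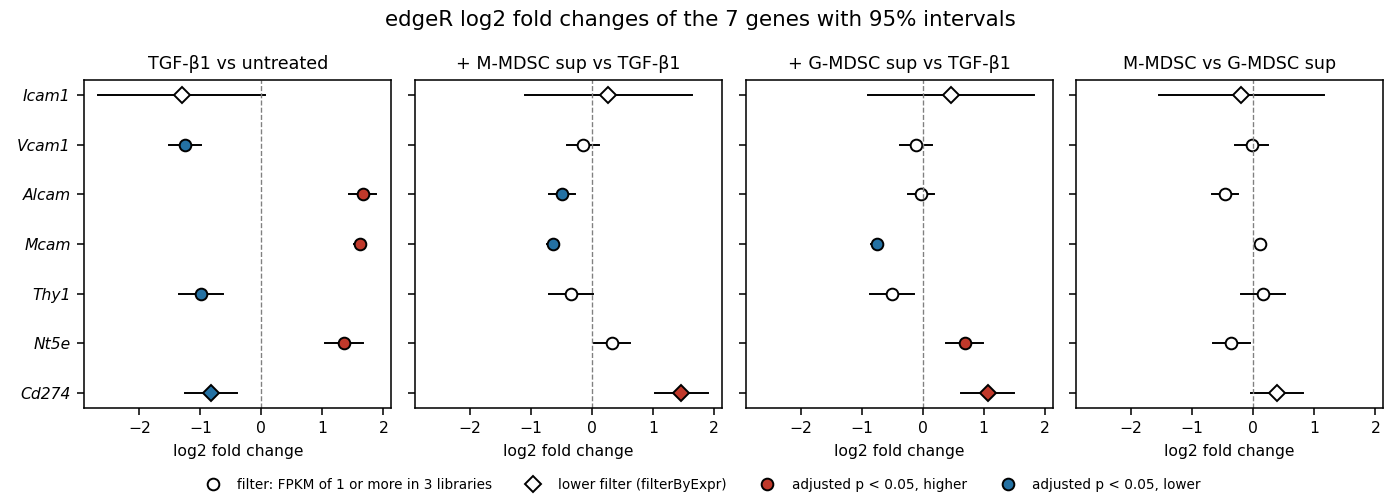
Log2 fold changes (x axis) of the 7 genes from edgeR in 4 comparisons, with 95% intervals; filled symbols have an adjusted p under 0.05 (red higher, blue lower), and diamonds are the 2 genes tested only under the lower filter. With TGF-β1 alone 3 genes are filled on the right and 3 on the left, and in the comparison of the supernatants no symbol is filled.

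The next comparison, TGF-β1/M-MDSC supernatant against TGF-β1, asks what the M-MDSC supernatant changed in TGF-β1-treated MSCs. Mcam and Alcam were lower and Cd274 was higher, whereas no call was made for Vcam1 and Thy1. Of the 3 genes that had fallen with TGF-β1, Cd274 alone was called higher. Of the 5 genes under the FPKM filter 2 passed, both lower. Over all genes tested 4.78% passed, 2.83% higher and 1.95% lower. Under the lower filter 3 of 7 passed, against 3.8% of genes. Limma on log2(FPKM + 0.1) called Mcam alone of the 5, against 4.48% of genes. The study's rule took none of the 5, against 2.18% of genes, and under the lower filter 1 of 7, Cd274 (fold 2.76), against 4.8%. The libraries did not overlap for 4 of the 7 genes (Mcam and Alcam lower, Nt5e and Cd274 higher), against 21.6% of genes.

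Mcam was at 40.1, 41.4 and 41.2 FPKM with TGF-β1/M-MDSC supernatant. These values lay between those of the control and of the TGF-β1 libraries, with no overlap with either. The log2 fold change against TGF-β1 was -0.64 ± 0.042 (SE; edgeR adjusted p = 3.49e-06). Without TGF-β1/M-MDSC replicate 3 it was also -0.64 (edgeR adjusted p = 4.62e-05).

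Alcam was at 1.21, 1.06 and 1.11 FPKM, below every TGF-β1 library and above every control library. Its log2 fold change was -0.49 ± 0.096 (SE; edgeR adjusted p = 0.0144). The call was lost without TGF-β1 replicate 3 (edgeR adjusted p = 0.0702), TGF-β1/M-MDSC replicate 2 (0.0640) or TGF-β1/M-MDSC replicate 3 (0.0587), with log2 fold changes from -0.48 to -0.45 in these fits. With limma on log2(FPKM + 1) the change was -0.27.

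Cd274 was at 0.822, 0.791 and 0.692 FPKM with TGF-β1/M-MDSC supernatant (248, 237 and 218 counts), above every TGF-β1 and every control library. Against TGF-β1 the log2 fold change was 1.46 ± 0.20 (SE; edgeR adjusted p = 0.00137). Without replicate 3 the log2 fold change was 1.54 (edgeR adjusted p = 0.00319). RNA of other cell types differed between these groups. The summed FPKM of 7 kidney tubule genes was 18.5, 14.3 and 80.4 in TGF-β1/M-MDSC replicates 1 to 3, 4.67 to 4.83 with TGF-β1 and 29.2 to 30.8 in control. Its genes went different ways: Aqp1, at a mean of 29.9 FPKM in control, was at 4.22 with TGF-β1 and 3.41 with M-MDSC supernatant, and Cubn at 0.454 and 0.386, whereas Kap went from 0 counts to 30.5 FPKM. That of 5 erythroid genes was 2.37, 4.25 and 2.10, at most 0.0786 with TGF-β1 and at most 0.457 in control. The hepatocyte sum was at most 0.176 in replicates 1 and 2, where Cd274 was highest. The summed FPKM of the leukocyte list of 12 genes was 3.76 to 4.0 in control, 1.45 to 1.72 with TGF-β1, 2.21 to 4.77 with TGF-β1/M-MDSC and 3.92 to 7.24 with TGF-β1/G-MDSC supernatant. From TGF-β1 to TGF-β1/M-MDSC supernatant group means of genes of that list went different ways. Those of the myeloid genes Lyz2, S100a9 and S100a8 went from 0.0573 to 1.54 FPKM (Lyz2) and from 0 counts to 0.576 (S100a9) and 0.149 FPKM (S100a8). Csf1r went from 1.03 to 1.08 FPKM, Ly6g from 0.0681 to 0.0619 and Itgb2 from 0.400 to 0.282. Mean Ptprc was 0.00486 FPKM with M-MDSC supernatant, and the T cell gene Cd3e had 0 counts. The part of other cells in the Cd274 values was not tested.

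Nt5e was at 1.25, 1.38 and 1.22 FPKM, all above the TGF-β1 libraries, but its log2 fold change of 0.33 (95% interval 0.030 to 0.63) had an edgeR adjusted p of 0.242. Vcam1 was at 1.31, 1.39 and 1.71 FPKM, with a log2 fold change of -0.14 (95% interval -0.41 to 0.12; edgeR adjusted p = 0.612). Thy1 was at 1.46, 1.67 and 2.04 FPKM, with a log2 fold change of -0.35 (95% interval -0.70 to 0.013; edgeR adjusted p = 0.319). For Vcam1 and Thy1 the 2 groups overlapped. Icam1 was at 0.222, 0.0190 and 0.115 FPKM, from 81, 7 and 45 counts, and its replicates spread more widely than those of any other group for this gene. Its log2 fold change of 0.27 had an interval from -1.10 to 1.64 (edgeR adjusted p = 0.909) and turned to -0.53 without TGF-β1/M-MDSC replicate 1. Without TGF-β1/M-MDSC replicate 3 the log2 fold changes were 0.37 for Nt5e, -0.26 for Vcam1, -0.48 for Thy1 and 0.28 for Icam1, and none passed (edgeR adjusted p from 0.219 to 0.945). In that fit 1 of the 5 genes under the FPKM filter passed, Mcam, against 3.26% of genes.

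With TGF-β1/G-MDSC supernatant, Mcam was lower than with TGF-β1 alone, Nt5e was higher and Cd274 was higher. Of the 5 genes 2 passed, 1 higher and 1 lower, against 5.56% of all genes tested, 3.1% higher and 2.46% lower. Under the lower filter 3 of 7 passed, against 4.55% of genes, and the study's rule took none of the 5, against 2.17%, and under the lower filter 1 of 7, Cd274 (fold 2.10), against 5.19%. The libraries did not overlap for 4 of the 7 genes (Mcam and Thy1 lower, Nt5e and Cd274 higher), against 21.5% of genes. Both supernatant comparisons use the same 3 TGF-β1 libraries.

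Mcam was at 38.6, 37.9 and 37.2 FPKM, a log2 fold change of -0.75 ± 0.042 (SE; edgeR adjusted p = 9.58e-07). Nt5e was at 1.62, 1.66 and 1.66 FPKM, above every library of the other groups, with a log2 fold change of 0.69 ± 0.14 (SE; edgeR adjusted p = 0.0130). The Nt5e call was lost without TGF-β1 replicate 2 (edgeR adjusted p = 0.0536) or replicate 3 (0.0526). With limma on log2(FPKM + 1) the change was 0.40.

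Cd274 was at 0.494, 0.642 and 0.627 FPKM (169, 205 and 205 counts), above the TGF-β1 libraries and overlapping the control libraries. Its log2 fold change against TGF-β1 was 1.07 ± 0.20 (SE; edgeR adjusted p = 0.00931), and the edgeR adjusted p was 0.0626 when only these 2 groups were fitted. The hepatocyte and Kap values above were present in all 3 of these libraries, and their part in the result was not tested.

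Alcam was at 1.64, 1.66 and 1.37 FPKM with TGF-β1/G-MDSC supernatant, with a log2 fold change of -0.034 (95% interval -0.25 to 0.18; edgeR adjusted p = 0.919). Vcam1 was at 1.26, 1.68 and 1.57 FPKM, with a log2 fold change of -0.11 (95% interval -0.38 to 0.15; edgeR adjusted p = 0.726). Thy1, at 1.34, 1.50 and 1.81 FPKM, lay below every TGF-β1 library, but its log2 fold change of -0.50 (95% interval -0.86 to -0.14) had an edgeR adjusted p of 0.120. Icam1 was at 0.187, 0.118 and 0.105 FPKM, overlapping the TGF-β1 libraries, with a log2 fold change of 0.46 (95% interval -0.90 to 1.83; edgeR adjusted p = 0.839).

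The direct comparison of TGF-β1/M-MDSC with TGF-β1/G-MDSC supernatant asks whether the MDSC types differed. None of the 5 genes passed with edgeR, as under the lower filter (0 of 7), and 0.125% and 0.0693% of all genes passed under the respective filters. Before adjustment 3 of the 5 had an edgeR p-value under 0.05 (Alcam, Mcam and Nt5e), against 6.33% of all genes. Limma on log2(FPKM + 1) called 0, against 0.325% of genes, and DESeq2 called 1, Alcam, against 1.01%. Every Alcam value with M-MDSC supernatant lay below those with G-MDSC supernatant, with a log2 fold change of -0.46 (95% interval -0.67 to -0.24; edgeR adjusted p = 0.167; DESeq2 adjusted p = 0.00866). Nt5e was lower with M-MDSC supernatant by a log2 fold change of -0.36 (95% interval -0.66 to -0.059; edgeR adjusted p = 0.698). Cd274 was higher in all 3 libraries with M-MDSC supernatant, with a log2 fold change of 0.39 (95% interval -0.030 to 0.82; edgeR adjusted p = 0.925), and Mcam by 0.11 (95% interval 0.020 to 0.21; edgeR adjusted p = 0.676). These were the 4 genes of 7 whose libraries did not overlap, against 12% of genes. Without TGF-β1/M-MDSC replicate 3 the log2 fold changes were -0.45 for Alcam, -0.32 for Nt5e, 0.47 for Cd274 and 0.11 for Mcam, and edgeR called none of the 5 genes (0.391% of all genes; adjusted p for these 4 from 0.282 to 0.883).

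Set against control MSCs, all 5 genes under the FPKM filter passed with either supernatant, 3 higher and 2 lower, where 35.2% of genes passed with TGF-β1/M-MDSC supernatant (16.4% higher, 18.9% lower) and 34.8% with TGF-β1/G-MDSC supernatant (16.4% higher, 18.4% lower). Vcam1 stood lower by log2 fold changes of -1.40 and -1.37, and Thy1 by -1.34 and -1.50. Mcam stood higher by 0.97 and 0.86, Alcam by 1.17 and 1.63, and Nt5e by 1.68 and 2.04, with M-MDSC and G-MDSC supernatant respectively. Alcam and Nt5e passed the FPKM filter only through libraries with TGF-β1, which favored a rise over control. Cd274 was above control with M-MDSC supernatant by a log2 fold change of 0.64 ± 0.19 (SE; edgeR adjusted p = 0.0312), where 26.5% of the 18761 genes passed. That call was lost in 5 of the 6 fits that left out a library, all but the one without TGF-β1/M-MDSC replicate 3, with an edgeR adjusted p of up to 0.0904. It was also lost without a filter, and with replicate number as a block in the fit (edgeR adjusted p = 0.0537). With G-MDSC supernatant the log2 fold change of Cd274 against control was 0.24 (95% interval -0.18 to 0.67; edgeR adjusted p = 0.425).

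The levels of each gene were also ordered over the 4 groups, and neighbors in that order were compared with edgeR. For Vcam1 and Thy1 control was above the other three groups, which were not told apart from their neighbors. For Mcam TGF-β1 was above M-MDSC supernatant and G-MDSC supernatant above control, while the 2 supernatants were not told apart. For Alcam M-MDSC supernatant was above control, and for Nt5e TGF-β1 was above control. For Cd274 control was above TGF-β1, and for Icam1 no neighbors were told apart.

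Counts over gene lists are to be read against the share of all genes tested that passed: 16.1% higher and 17.9% lower with TGF-β1, 2.83% and 1.95% with M-MDSC supernatant against TGF-β1, and 3.1% and 2.46% with G-MDSC supernatant against TGF-β1. Among other adhesion molecules for leukocytes, genes moved in both directions with TGF-β1. Of 24 genes in that list 12 were tested, and 6 rose and 5 fell with TGF-β1 (16.1% and 17.9% of all genes; median log2 fold change 0.34, against 0.00048 over all genes tested). Cd34, a sialomucin that L-selectin can bind, went from 63.1 ± 2.9 to 15.9 ± 2.1 FPKM (SD, n = 3), and the neural adhesion molecule Ncam1 from 6.44 ± 0.18 to 18.1 ± 0.51 FPKM. Jam2, a junctional molecule that binds VLA-4, rose by a log2 fold change of 1.41, and Nectin2 fell by 0.91 on the log2 scale. With M-MDSC supernatant 1 gene was higher, Cd47, the ligand of SIRPα (log2 fold change 0.67), and 1 was lower, the membrane-bound chemokine Cx3cl1 (-0.62), where 4.78% of all genes passed. Without TGF-β1/M-MDSC replicate 3 the log2 fold changes were 0.59 and -0.63, and neither was called (edgeR adjusted p = 0.103 and 0.0502). In that fit 3.26% of all genes passed. With G-MDSC supernatant 2 were lower, Cd34 (-0.43) and Cd24a (-0.17), where 5.56% of all genes passed.

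Among 14 tested MSC and stromal surface markers, 8 rose and 6 fell with TGF-β1, against 16.1% and 17.9% of all genes. Ly6a (Sca-1), by which the study checked its MSCs, fell from 245.1 to 16.2 FPKM in the group means, while Cd200 (log2 fold change 2.82), the pericyte proteoglycan Cspg4 (2.64) and the fibronectin receptor chain Itga5 (2.18) rose. Cd200 and Cspg4, at means of 0.208 and 0.693 FPKM in control, passed the filter only through libraries with TGF-β1, which favored a rise. With M-MDSC supernatant Ly6a was at 92.5 FPKM and with G-MDSC supernatant at 66.9 FPKM, with log2 fold changes against TGF-β1 of 2.49 and 2.02. Bst2, an interferon-induced membrane protein, was at 30.1 FPKM with TGF-β1, 605.5 with M-MDSC and 420.1 with G-MDSC supernatant. Pdgfrb was lower with both supernatants (-0.24 and -0.41), and Pdgfra higher with G-MDSC supernatant (0.35). In all, 2 of the 14 were higher and 1 lower with M-MDSC supernatant, and 3 higher and 2 lower with G-MDSC supernatant, against 4.78% and 5.56% of all genes in either direction. Bst2 (4.33), Ly6a (2.41) and Pdgfrb (-0.21) were the 3 genes called against TGF-β1 when TGF-β1/M-MDSC replicate 3 was left out, where 3.26% of all genes passed. Between the supernatants 0 of the 14 passed with all libraries, where 0.125% of all genes passed; 3 had an unadjusted p under 0.05, against 6.33%. Bst2 had a log2 fold change of 0.53 there (edgeR adjusted p = 0.0509). Without replicate 3 it was called (0.56, edgeR adjusted p = 0.0490), where 0.391% of all genes passed.

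Of 18 further genes that act on T cells, a list of ligands with the enzymes Ido1 and Nos2 and the PD-L1 stabilizers Cmtm4 and Cmtm6, 6 were tested, and 3 fell and 0 rose with TGF-β1, against 17.9% and 16.1% of all genes. Lgals9, whose product galectin-9 binds TIM-3, fell from 10.4 ± 0.39 to 1.14 ± 0.16 FPKM (SD, n = 3), and was at 15.1 ± 0.77 with M-MDSC and 8.78 ± 0.46 with G-MDSC supernatant. It was the 1 gene of this list that was higher with either supernatant than with TGF-β1, and the 1 that differed between the supernatants (log2 fold change 0.78; edgeR adjusted p = 0.00766), where 0.125% of all genes passed. Without TGF-β1/M-MDSC replicate 3 its log2 fold changes against TGF-β1 and G-MDSC supernatant were 3.66 and 0.75, both called. In these comparisons 3.26% and 0.391% of all genes passed. Cmtm4, which is no ligand, and the galectin Lgals1 fell with TGF-β1 by 0.23 and 0.18 on the log2 scale.

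Among 7 tested genes of extracellular adenosine, the pathway of Nt5e, 2 rose and 3 fell with TGF-β1, against 16.1% and 17.9% of all genes. Enpp1, which makes AMP from ATP, rose from 5.36 to 17.6 FPKM, and the nucleoside transporter Slc29a1 rose by 0.51 (log2). Alpl, an alkaline phosphatase that also dephosphorylates AMP, fell from 7.37 to 0.513 FPKM, and the adenosine receptor Adora2b from 10.3 to 2.52. With the supernatants Alpl was higher than with TGF-β1 alone (log2 fold changes 1.47 and 1.42), and Enpp1 was lower with M-MDSC supernatant (-0.29). These were the list's calls: 1 higher and 1 lower with M-MDSC, and 1 higher and 0 lower with G-MDSC supernatant, against 4.78% and 5.56% of all genes in either direction. Alpl was also called without TGF-β1/M-MDSC replicate 3 (1.34), and Enpp1 was not, with a log2 fold change of -0.25 (edgeR adjusted p = 0.0763). In that fit 3.26% of all genes passed.

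Of 17 receptors and transcription factors of TNF, IL-1 and interferon signaling, all 17 were tested. With TGF-β1 11 fell and 0 rose, against 17.9% and 16.1% of all genes. Whether they act on the genes followed here was not tested. The list's median log2 fold change was -0.56. Irf1 (-1.20), the IL-1 receptor Il1r1 (-1.15) and Stat2 (-0.96) were among those that fell. Il1r1 passed the filter only through the control libraries (mean 1.37 FPKM, at most 0.596 in the other groups), which favored a fall. With M-MDSC supernatant 3 were higher and 0 lower, and with G-MDSC supernatant 5 were higher and 0 lower, where 2.83% and 3.1% of all genes were higher. Stat2, a transcription factor of interferon signaling, was at 1.76 FPKM with TGF-β1, 9.36 with M-MDSC and 7.34 with G-MDSC supernatant. Relb, of the NF-κB family, was higher by log2 fold changes of 0.59 and 0.70, and the NF-κB inhibitor Nfkbia by 0.45 with G-MDSC supernatant. Without TGF-β1/M-MDSC replicate 3, 2 of the 17 were higher with M-MDSC supernatant, Stat2 (2.38) among them, against 3.26% of all genes in either direction. Relb was not called in that fit, with a log2 fold change of 0.58 (edgeR adjusted p = 0.120).

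Of the 7 membrane linkers and sheddases, 2 rose and 2 fell with TGF-β1 (16.1% and 17.9% of all genes), and in edgeR none passed with either supernatant against TGF-β1 (2 and 1 had an unadjusted p-value under 0.05 with M-MDSC and G-MDSC supernatant, against 16.7% and 17.2% of all genes), where 4.78% and 5.56% of all genes passed. Moesin (Msn), which anchors ICAM-1 and similar molecules to actin, rose from 198.2 to 335.3 FPKM, while ezrin (Ezr) fell from 67.0 to 37.9. The sheddase Adam9 fell by 0.64 on the log2 scale, and Mmp14 rose by 0.50. Of 8 counter-receptor genes of leukocytes only 2 were tested, and both fell with TGF-β1, where 17.9% of all genes fell. They were the integrin chains Itgb7 (-2.76) and Itgb2 (-1.58). Both passed the filter only through the control libraries, which favored a fall, so their count shows no direction for this list.

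**Figure D4:**
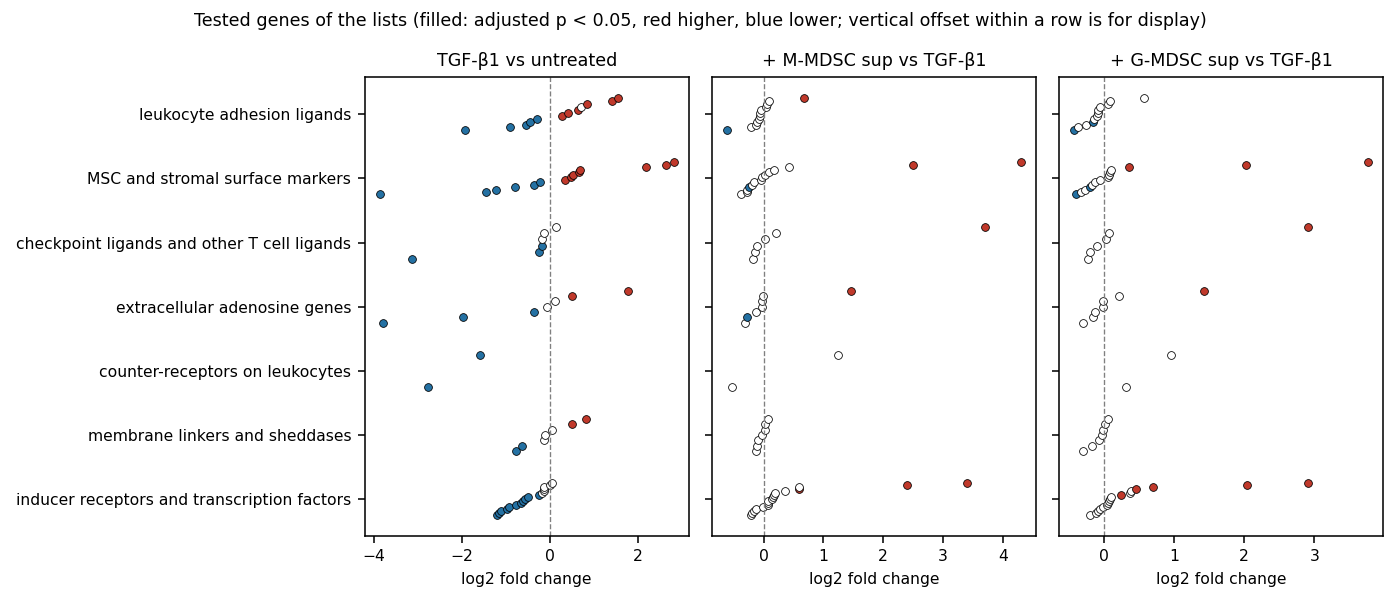
Log2 fold changes (x axis) of the tested genes of 7 lists (rows) in 3 comparisons; filled points have an edgeR adjusted p under 0.05 (red higher, blue lower), and the vertical offset in a row is for display. In the row of receptors and transcription factors 11 points are filled on the left with TGF-β1, and 3 and 5 are filled on the right with M-MDSC and G-MDSC supernatant.

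The genes whose pattern was most like that of each tested gene were taken by Pearson's r of log2(FPKM + 1) over the 12 libraries, as a description, since the libraries share 4 conditions. For Vcam1 they were Epha1 (r = 0.994), Gzme (0.993) and Sema3b (0.993), which all were highest in control MSCs. For Mcam they were Cadm4 (0.989), Csrp1 (0.984) and Egr2 (0.984), with Cadm4 at 3.85, 12.1, 7.82 and 6.72 FPKM in control, TGF-β1, M-MDSC and G-MDSC supernatant. For Alcam they were 3300005D01Rik (0.960), Enpp1 (0.955) and Runx1 (0.953), for Thy1 Dusp1 (0.980), Pomk (0.979) and Evc (0.978), and for Nt5e Carmil1 (0.977), Gm32219 (0.973) and Ttc39c (0.973). Among the 7 genes themselves, Vcam1 and Thy1 had the highest r (0.951), Thy1 and Nt5e the lowest (-0.925), and Cd274 had r between -0.40 and 0.30 with each of the others.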

How the data were processed

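The deposited table holds raw counts and FPKM for 12 libraries, and the authors wrote a count of 0 as 0.0001 FPKM. Per the labels' processing notes and the study's methods, reads were trimmed (cutadapt 1.9), aligned to GRCm38 (HISAT2 2.0.4) and assembled (StringTie 1.3.4d); the counting tool is not given in the sources used here. Of nonzero counts up to 12, 44.3% were 4, 8 or 12, so counts divided by 4 were also tried. Libraries held 73977669 to 84565450 counts.

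Genes with at least 1 FPKM in at least 3 libraries (12016) were scaled by TMM and tested with edgeR 4.0.16 (R 4.3.3; two-sided quasi-likelihood F test, 4 groups in 1 fit, Benjamini-Hochberg). Icam1 and Cd274 fell below this filter and are given from a fit of 18761 genes (filterByExpr). Alternatives were DESeq2 1.42.0, limma 3.58.1 on log2(FPKM + 1) and log2(FPKM + 0.1), other scaling, no filter, only the groups compared, a replicate block, the study's rule and leaving out each library. All 7 genes are named; from each list, the up to 4 genes with the largest change among those that passed in a comparison, and for each tested gene the 3 most similar by Pearson's r. Some genes under this rule are not reported here. The genes and lists were chosen with earlier results of these data known. Alternatives for Icam1 and Cd274 under the lower filter, list calls without TGF-β1/M-MDSC replicate 3, and the p65-type motif, were chosen after seeing the data.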

Additional observations from a re-analysis of the deposited data

How the results depend on the processing

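Leaving out 1 library at a time gave 1 to 2 of the 5 genes called when M-MDSC supernatant was compared with TGF-β1, and 1 to 2 for G-MDSC supernatant. Without TGF-β1/M-MDSC replicate 3, 3.26% of all genes passed against TGF-β1. For the other such fits the share of all genes is not reported here, so their counts cannot be set against it. Limma on log2(FPKM + 0.1) called 1 with M-MDSC supernatant (4.48% of all genes), and the study's rule 0 with either. In the comparison of the supernatants DESeq2 called 1 (1.01% of all genes). Changes of direction occurred only among fold changes that were not called, when libraries were left out: Icam1 with M-MDSC supernatant against TGF-β1 ranged from -0.53 to 0.77 (log2) and between the supernatants from -0.995 to 0.31, Vcam1 between the supernatants from -0.15 to 0.056, and Alcam with G-MDSC supernatant against TGF-β1 from -0.081 to 0.049. Of all fold changes recomputed, 569 kept their direction and side of the threshold, 14 lost the call, 2 gained it and 9 changed direction; the cause was not tested. The 90 recomputed values of Mcam and the 90 of Thy1 all kept both. Without a filter the Cd274 call with M-MDSC supernatant against control was lost (adjusted p = 0.0518). Limma was not run for Icam1 and Cd274.

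Libraries with the same replicate number did not deviate together (mean residual correlation -0.0044 for 18 pairs, and 0.0023 for the 36 pairs whose numbers differed). With the replicate block, 5, 2, 2 and 0 of the 5 genes were called with TGF-β1 against control, with M-MDSC and with G-MDSC supernatant against TGF-β1, and between the supernatants, as without it. The share of all genes called with the block is not reported here, so these counts describe the 5 genes only. Under the lower filter, Cd274 with M-MDSC supernatant against control had an edgeR adjusted p of 0.0537 with the block. Icam1 rests on 7 to 144 counts a library; whether depth or the spread between libraries limits its test was not tested.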

Other observations

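Genes of the leukocyte list differed in their pattern over the groups, and the pan-leukocyte gene Ptprc had 0 counts in all 3 control libraries. Itgb2, the β2 chain of the integrins that bind ICAM-1, was at 1.25 ± 0.10 FPKM (SD, n = 3; 310 to 379 counts) without treatment, at 0.400 after TGF-β1, and at 0.282 and 0.507 when M-MDSC or G-MDSC supernatant was added. Ly6g, a surface protein known from neutrophils, was at 1.83 ± 0.084 FPKM (152 to 161 counts) in control MSCs and at 0.0681, 0.0619 and 0.125 in the other groups. Csf1r, the receptor of the macrophage growth factor M-CSF, went the other way, with 0.631 FPKM (272 to 421 counts) in control MSCs and 1.03, 1.08 and 1.19 in the other groups. Lyz2, the lysozyme of myeloid cells, was at 0.115 FPKM in control MSCs, 0.0573 after TGF-β1, and 1.54 and 1.87 with M-MDSC and G-MDSC supernatant. S100a9, an abundant neutrophil gene, had 0 counts in the control and TGF-β1 libraries, and was at 0.576 FPKM (12 to 43 counts) when M-MDSC supernatant was added and at 1.13 FPKM (0 to 160 counts) when G-MDSC supernatant was. The water channel Aqp1, on the kidney tubule list, was at 29.9 ± 0.87 FPKM in control MSCs and at 4.22, 3.41 and 3.26 in the other groups. These genes were chosen after their values were seen.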
